A study of Homo sapiens with 8 samples.

Results

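The apelin and sphingosine 1-phosphate (S1P) genes are a set of 9 genes chosen by name: the ligand gene APLN, its receptor gene APLNR, the S1P receptor genes S1PR1, S1PR2 and S1PR3, the kinase genes SPHK1 and SPHK2, the exporter gene SPNS2 and the lyase gene SGPL1. They were found by gene name among the 30386 genes of the deposited table, and all 9 were present once and passed the filter on low counts. Their mRNA was compared between 2 kinds of endothelial cell differentiated from the same human iPSC line, WTC-TJP1, an established line. The general endothelial cells are labelled iEC (4 samples) and the retinal endothelial cells, from a matched differentiation, iREC (4 samples); all were taken at passage 1. Samples of both kinds are lettered C to F, and no treatment or added genetic change distinguishes them in the labels. All samples come from 1 cell line, and nothing says that they were separate cultures, so p-values measure the spread between these samples, which may be technical. What the retinal protocol added or left out is not given in the sources used here.

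Apelin is a small secreted peptide that acts on APLNR, a G protein coupled receptor. In growing vessels APLN is typical of the sprouting tip and APLNR of veins and of the stalk behind the tip. S1P is a lipid made inside cells when sphingosine kinases phosphorylate sphingosine; endothelial cells release it through SPNS2, and it then acts on surface receptors. S1PR1 couples to Gi and RAC and tightens the endothelial barrier, S1PR2 couples to G12/13 and loosens it, and S1PR3 couples to several G proteins. The lyase SGPL1 ends the pathway by cleaving S1P irreversibly inside the cell.

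Both apelin genes of the set, APLN and APLNR, were several-fold lower in iREC. On the S1P side mRNA for the kinase SPHK1 was lower while mRNA for the lyase SGPL1 and the receptor S1PR3 was higher. Of the 9 genes, 5 passed the quasi-likelihood test of edgeR at an adjusted p under 0.05 and are termed called, 2 higher (S1PR3 and SGPL1) and 3 lower (APLN, APLNR and SPHK1). Over all 15330 genes tested, 25% were called, 13.2% higher and 11.7% lower. In 6 of the 9 genes the samples of the groups did not overlap, 2 higher and 4 lower in iREC (the 5 called genes and S1PR1), against 29.1% of the genes tested. The median log2 fold change of the 9 genes was -0.51, and that of all genes tested was 0.020. With so few genes these shares describe the set and test nothing about it.

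**Figure D1:**
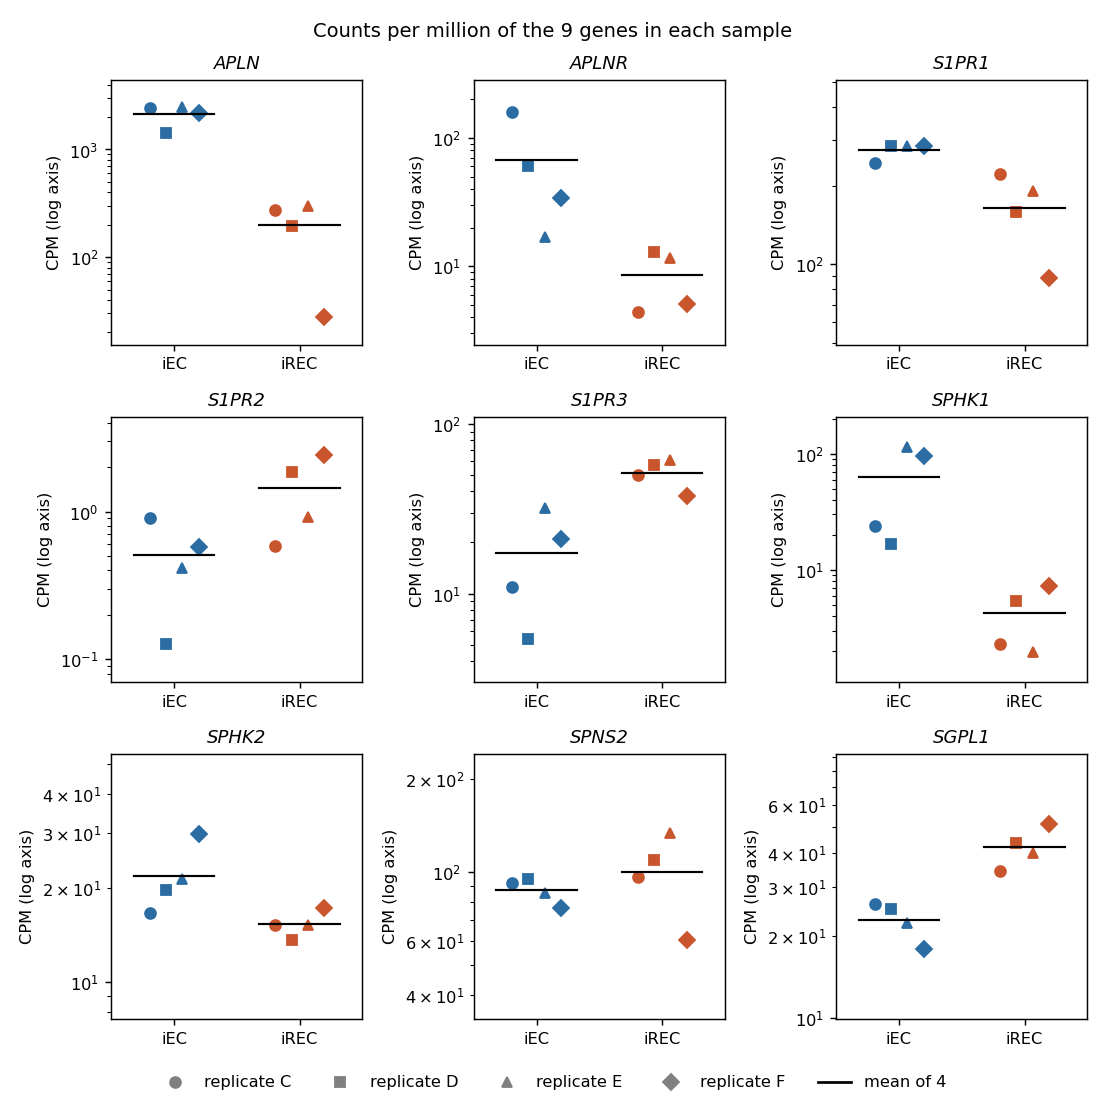
CPM (counts scaled by library size, log axis) of the 9 genes in each sample, with iEC in blue, iREC in orange, a marker shape per replicate letter and a line at the mean of 4 samples. APLN and SPHK1 part the groups by the widest margins, and the iREC F sample lies lowest of all samples in APLN, S1PR1 and SPNS2.

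Between 13739364 and 16971865 reads were counted per sample. CPM here are the usual counts per library size, with libraries scaled by TMM, and 3 counts, taken as the floor of detection, correspond to 0.178 to 0.215 CPM. Over the 500 most variable genes, samples of different groups lay at least 97.7 log2 CPM units apart and samples of the same group at most 59.1, a distance found between iREC C and iREC F. These genes were picked by their variance over all samples, which favours genes that differ between the groups, so the wider distance between groups is no test. All 8 endothelial markers listed for the check (PECAM1, CDH5, KDR, TIE1, TEK, ERG, CLDN5 and ESAM) were counted in every sample, with 2 called higher and 3 lower. Their summed level ran from 6497 to 8449 CPM in iEC and from 3665 CPM in iREC F to 8550 CPM in iREC E. Summed mural and mesenchymal markers were higher in every iREC sample than in any iEC sample, and both sums, with that of the epithelial markers, were highest in iREC F. The gap between the groups in the mural and the mesenchymal sum rested on 1 abundant gene each. Taken singly, TAGLN, MYH11, NOTCH3 and DES, and POSTN, DCN and PDGFRA, were higher in every iREC sample than in any iEC sample. The other markers of these lists overlapped, and DES, DCN and PDGFRA were below the filter. Without TAGLN the mural sum was 145 to 213 CPM in iEC and 149.6, 226, 124 and 861 CPM in the iREC samples C to F, and without POSTN the mesenchymal sum was 46.0 to 298 CPM in iEC and 154, 502, 207 and 2871 CPM in the iREC samples C to F, so both then overlapped. The 9 mural markers summed to 173 to 238 CPM in iEC and 442 to 1731 CPM in iREC, with 3 of 7 tested called higher and 1 lower. The 7 mesenchymal markers summed to 48.4 to 328 CPM in iEC, to 686 to 1353 CPM in iREC C, D and E, and to 4186 CPM in iREC F, with 2 of 5 tested called higher. The 7 epithelial markers summed to 392 to 1177 CPM in iEC, to 302 to 1123 CPM in iREC C, D and E, and to 4933 CPM in iREC F, with 1 of 6 tested called higher. DCN had 0 counts in iEC C, D and E, 1 in iEC F and between 9 and 2039 in iREC; CDH1 had at most 1 count in iEC and between 0 and 1246 in iREC. The 6 blood cell markers summed to 33.8 to 64.0 CPM in iEC and 26.9 to 37.4 CPM in iREC, with 1 of 3 tested called higher and 1 lower. The 4 pluripotency markers summed to 8.66 to 33.1 CPM in iEC and 20.7 to 482 CPM in iREC, where the highest was iREC F, and the 1 gene tested (LIN28A) was called higher. These counts of called markers stand beside 25% called of all genes tested. In bulk RNA such as this, fewer cells of a type and less RNA per cell cannot be told apart. The part of these other cells in the results below was not tested, and the values of the 9 genes without iREC F are given beside each.

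APLN (ENSG00000171388, chromosome X, 129645259 to 129654937 on the reverse strand, GRCh38) encodes apelin. It had 2447, 1430, 2468 and 2186 CPM in the iEC samples C to F and 273, 196, 301 and 27.6 in the iREC samples C to F. Every iREC sample was below every iEC sample, and iREC F was far below the other 3 iREC samples. The mean level fell from 2133 ± 486 CPM to 199 ± 123 (SD over 4 samples). The fitted log2 fold change was -3.42 ± 0.61 (SE; adjusted p 0.00362 by edgeR), a level 10.7-fold lower. Without iREC F, the sample with the lowest endothelial and highest mesenchymal and epithelial sums, the log2 fold change was -3.06 (edgeR adjusted p 1.00e-04). By FPKM, a level per length of gene and depth of library, APLN ranked 30th of all listed genes in iEC and 573rd in iREC.

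APLNR (ENSG00000134817, chromosome 11, 57233577 to 57237314, reverse strand), the receptor for apelin, was also lower. It had 158, 60.9, 16.8 and 33.8 CPM in the iEC samples C to F and 4.38, 12.8, 11.7 and 5.04 in the iREC samples C to F. The groups did not overlap, but iEC E was close to the highest iREC sample, and the iEC samples themselves spanned 9.43-fold. The mean level fell from 67.3 ± 63.1 CPM to 8.48 ± 4.39 (SD over 4 samples). The fitted log2 fold change was -2.99 ± 0.69 (SE; adjusted p 0.0121 by edgeR). The size of the fall leaned on iEC C: without it the log2 fold change was -2.13 (edgeR adjusted p 0.0236). Without iREC F it was -2.81 (edgeR adjusted p 0.0254). The ratio of APLN to APLNR mRNA, taken as FPKM over FPKM, was between 18.1 and 172 in iEC and between 6.39 and 72.6 in iREC, so ligand mRNA exceeded receptor mRNA in all 8 samples. APELA, the gene of a second APLNR ligand, had 0 counts in all 4 iEC samples, which allows up to 0.215 CPM, and 0, 11, 7 and 32 counts in the iREC samples C to F; it was below the filter and was not tested.

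The 250 bases before a RefSeq transcription start are shown for APLN, S1PR3 and SGPL1, the called genes for which this stretch touches no annotated exon, so that the starts of 1 gene that fell and 2 that rose can be read side by side. The stretches are APLN chrX:129654957-129655206 (reverse strand), S1PR3 chr9:88990613-88990862 and SGPL1 chr10:70815698-70815947 (both forward strand), in GRCh38.p14, written from 5′ to 3′ along the gene. Capitals mark ACGTG or GCGTG on either strand (CACGT and CACGC when read on the other strand), the core of the hypoxia response element.
APLN: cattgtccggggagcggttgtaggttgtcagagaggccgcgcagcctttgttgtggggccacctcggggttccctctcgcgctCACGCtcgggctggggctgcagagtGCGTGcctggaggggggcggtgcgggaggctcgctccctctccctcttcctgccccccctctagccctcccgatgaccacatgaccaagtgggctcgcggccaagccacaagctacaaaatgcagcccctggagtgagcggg
S1PR3: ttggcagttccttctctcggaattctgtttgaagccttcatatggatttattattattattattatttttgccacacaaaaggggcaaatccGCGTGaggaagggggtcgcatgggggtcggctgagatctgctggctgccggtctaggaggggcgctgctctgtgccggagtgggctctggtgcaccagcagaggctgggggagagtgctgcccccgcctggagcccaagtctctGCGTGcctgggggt
SGPL1: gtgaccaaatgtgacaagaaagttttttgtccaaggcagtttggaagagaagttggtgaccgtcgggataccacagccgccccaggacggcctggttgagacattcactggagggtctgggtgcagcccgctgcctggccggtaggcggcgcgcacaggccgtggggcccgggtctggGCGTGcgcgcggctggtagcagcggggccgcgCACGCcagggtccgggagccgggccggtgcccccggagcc
Each of the 3 stretches held 2 such matches, and the stretch before a second RefSeq start of S1PR3, which touches an exon and is not shown, held 0. Of the 11 stretches listed for 7 of the 9 genes, 7 held at least 1 match, and of 35116 RefSeq promoters 43.2% did in a stretch of this length. CACCC, the box bound by Krüppel-like factors, was found on either strand 0 times in the stretches shown for APLN and S1PR3 and 1 time in that of SGPL1. It was in 7 of the 11 stretches and in 54.7% of all promoters. GTAAACA, a forkhead motif, was in none (0) of the 11 stretches and in 2.98% of all promoters. A match says only that the letters are present.

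SPHK1 (ENSG00000176170, chromosome 17, 76376584 to 76387860), the mainly cytoplasmic sphingosine kinase, had the largest fitted change of the 9 genes. It had 24.0, 16.7, 115 and 95.5 CPM in the iEC samples C to F and 2.29, 5.42, 1.95 and 7.27 in the iREC samples C to F. All iREC samples were lower than all iEC samples, and within iEC the samples E and F were well above C and D. The mean level fell from 62.8 ± 49.8 CPM to 4.23 ± 2.56 (SD over 4 samples). The fitted log2 fold change was -3.89 ± 0.73 (SE; adjusted p 0.00439 by edgeR), a level 14.9-fold lower. Without iREC F, its highest iREC sample, the log2 fold change was -4.29 (edgeR adjusted p 0.00531). PRPSAP1 on the opposite strand shares 1.34% of the exon bases of SPHK1; its own log2 fold change was -0.12 (edgeR adjusted p 0.572).

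SPHK2 (ENSG00000063176, chromosome 19, 48619291 to 48630717), the second kinase, which is also found in the nucleus, was not called. It had 16.6, 19.7, 21.4 and 29.8 CPM in the iEC samples C to F and 15.2, 13.6, 15.1 and 17.2 in the iREC samples C to F. Only iREC F overlapped the iEC range, and the log2 fold change was -0.51 ± 0.20 (SE; adjusted p 0.0852 by edgeR). RPL18, DBP and an antisense RNA on the opposite strand share 4.09%, 11% and 11.3% of its exon bases, and although the library protocol keeps the strand, whether reads were counted by strand is not given in the sources used here, so its level is uncertain. Without iREC F the log2 fold change was -0.58 (edgeR adjusted p 0.0785). The balance of the 2 kinase mRNAs did not overlap between the groups: the FPKM ratio of SPHK1 to SPHK2 was between 1.16 and 7.33 in iEC, above 1 in each sample, and between 0.176 and 0.574 in iREC, below 1 in each.

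SPNS2 (ENSG00000183018, chromosome 17, 4498838 to 4539035), which carries S1P out of endothelial cells, was not called. It had 92.1, 95.1, 85.4 and 76.6 CPM in the iEC samples C to F and 96.6, 109, 134 and 60.3 in the iREC samples C to F. The iREC samples lay on both sides of the iEC range, with C, D and E above it and F below it. The log2 fold change was 0.20 ± 0.22 (SE; adjusted p 0.548 by edgeR). Its value moved with iREC F: without that sample the log2 fold change was 0.37 (edgeR adjusted p 0.0850). MYBBP1A on the opposite strand shares 3.38% of its exon bases.

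SGPL1 (ENSG00000166224, chromosome 10, 70815961 to 70881173), the S1P lyase, rose with the least spread of the called genes. It had 26.0, 24.97, 22.2 and 17.8 CPM in the iEC samples C to F and 34.5, 43.5, 39.9 and 51.0 in the iREC samples C to F. The lowest iREC sample was above the highest iEC sample, and in neither group did samples differ by more than 1.48-fold. The mean level rose from 22.7 ± 3.66 CPM to 42.2 ± 6.93 (SD over 4 samples). The fitted log2 fold change was 0.89 ± 0.17 (SE; adjusted p 0.00476 by edgeR), a level 1.86-fold higher. Its highest iREC value was in iREC F, where the mural, mesenchymal and epithelial markers were also highest. Without iREC F the log2 fold change was 0.79 (edgeR adjusted p 0.00930).

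**Figure D2:**
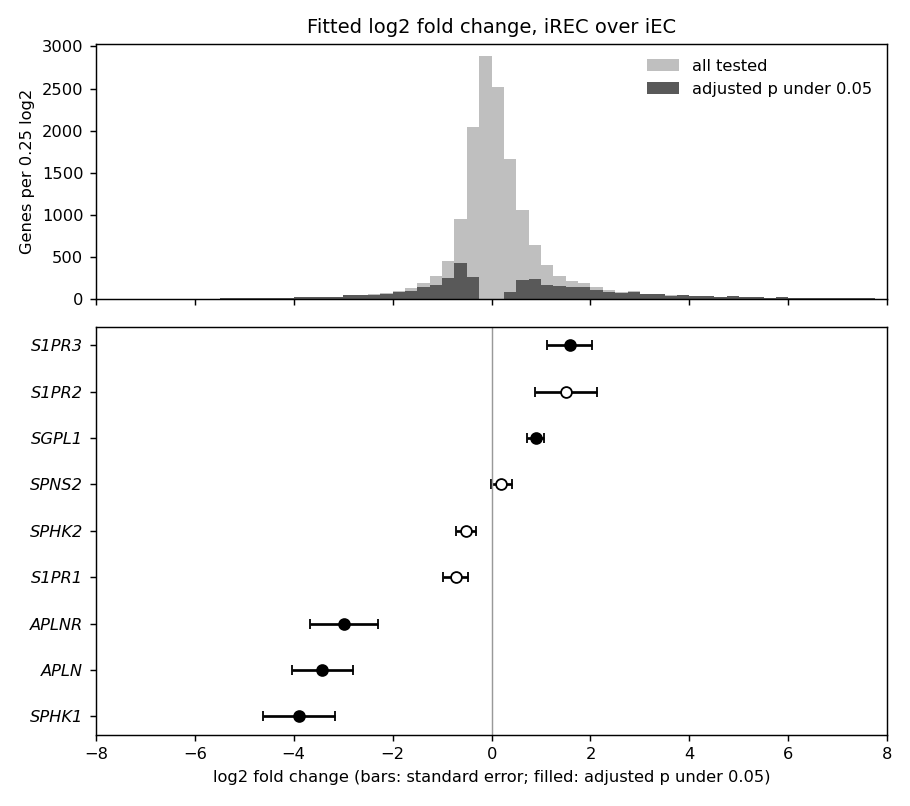
Top, the number of genes per 0.25 log2 step of fold change among all tested genes (light) and the called genes (dark); bottom, the fitted log2 fold change of each of the 9 genes (iREC over iEC) with its standard error, filled where called. The falls of SPHK1, APLN and APLNR, from -3.89 to -2.99, lie in the thin left tail of the distribution, while SGPL1 at 0.89 has the narrowest error bar.

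S1PR1 (ENSG00000170989, chromosome 1, 101236865 to 101243713), the main S1P receptor of endothelium, stayed just outside the threshold. It had 244, 283, 284 and 283 CPM in the iEC samples C to F and 222, 159, 192 and 88.4 in the iREC samples C to F. No iREC sample reached the lowest iEC sample, and iREC F was again the lowest. The means were 274 ± 19.7 and 165 ± 57.2 CPM (SD over 4 samples), and the fitted log2 fold change was -0.73 ± 0.24 (SE; adjusted p 0.0561 by edgeR). The call depended on the setting: S1PR1 was called in 5 of 17 alternatives, among them DESeq2 (adjusted p 0.0297), limma-voom (adjusted p 0.0447) and the edgeR fit without iREC F (log2 fold change -0.52, adjusted p 0.0267), and over the alternatives the adjusted p ran from 0.0267 to 0.131. The authors' deposited table, too, lists S1PR1 with an adjusted p of 0.0297; it lists 6 of the 9 genes under 0.05, where 16.3% of its genes are.

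S1PR3 (ENSG00000213694, chromosome 9, 88990863 to 89005010) was higher in iREC. It had 10.9, 5.44, 31.7 and 20.9 CPM in the iEC samples C to F and 50.1, 57.5, 60.9 and 37.3 in the iREC samples C to F. The groups did not overlap, although iEC E and iREC F were close. The mean level rose from 17.2 ± 11.6 CPM to 51.5 ± 10.4 (SD over 4 samples). The fitted log2 fold change was 1.58 ± 0.46 (SE; adjusted p 0.0328 by edgeR), a level 2.98-fold higher. The call was lost without any 1 of iEC C, iEC F, iREC C, iREC D or iREC E, with edgeR adjusted p from 0.0557 to 0.0884 and log2 fold changes from 1.39 to 1.67. S1PR3 is also expressed by mural cells. Of their 7 tested markers TAGLN, MYH11 and NOTCH3 were called higher in iREC, RGS5 was called lower, and PDGFRB, CSPG4 and ACTA2 were not called. The level of S1PR3 in iREC F, where the mural sum was highest and the endothelial sum lowest, was the lowest of the 4 iREC samples. Without iREC F the log2 fold change was 1.70 (edgeR adjusted p 0.0303). The part of mural cells in the level of S1PR3 was not tested.

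S1PR2 (ENSG00000267534, chromosome 19, 10221433 to 10231331, reverse strand) was the least abundant of the 9 genes. Its counts were 14, 2, 7 and 8 in the iEC samples C to F and 9, 26, 15 and 37 in the iREC samples C to F. The groups overlapped, and a difference was not called at this depth (log2 change 1.504 ± 0.62, SE; adjusted p 0.108 by edgeR). The highest count was in iREC F, and without that sample the log2 fold change was 1.13 (edgeR adjusted p 0.226). DNMT1, on the same strand, shares 2.28% of its exon bases and had 155 CPM in iEC and 160 CPM in iREC, so the few counts of S1PR2 are uncertain.

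Because the receptors differ in length, their relative amounts were taken from FPKM. S1PR1 made up 97.8%, 99.2%, 95.7% and 97.0% of the summed FPKM of S1PR1, S1PR2 and S1PR3 in the iEC samples C to F and 91.7%, 86.5%, 88.6% and 83.2% in the iREC samples C to F. S1PR1 was the main mRNA of these 3 receptors in all 8 samples, with a lower share in each iREC sample than in any iEC sample. The sum leaves out S1PR5, which had 2.22, 3.78, 2.14 and 9.69 CPM in the iREC samples C to F. In each of them S1PR5 was above S1PR2, which had 0.589, 1.86, 0.916 and 2.42 CPM. The FPKM of S1PR5 was not taken, so its weight beside this sum is not known here. The mean S1PR1 share of the sum was 97.4 ± 1.48% in iEC and 87.5 ± 3.56% in iREC (SD, n = 4). S1PR3 took 0.732% to 4.12% in iEC and 7.98% to 13.5% in iREC. S1PR1 exceeded S1PR3 by 23.2-fold to 136-fold in iEC and by 6.15-fold to 11.5-fold in iREC. The summed FPKM of the 3 receptors was 53.4 ± 4.73 in iEC and 35.1 ± 10.9 in iREC (SD, n = 4), with iREC F lowest at 20.2.

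The kinase SPHK1 and the lyase SGPL1, which make and remove S1P, changed in opposite directions at the mRNA level. The summed FPKM of SPHK1 and SPHK2, divided by that of SGPL1, was 2.36, 2.12, 9.99 and 11.2 in the iEC samples C to F and 0.661, 0.602, 0.555 and 0.662 in the iREC samples C to F. In iREC the kinase sum was mostly SPHK2 (mean 2.50 FPKM, against 0.945 for SPHK1), whose level is uncertain because of the overlapping genes named above. Kinase mRNA exceeded lyase mRNA in every iEC sample and was below it in every iREC sample. The 4 iREC samples agreed closely, at 0.620 ± 0.0515 (SD, n = 4), whereas the iEC samples formed a low pair (C and D) and a high pair (E and F). This ratio is a description of mRNA over the genes chosen and was given no test; neither enzyme activity nor S1P itself was measured.

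**Figure D3:**
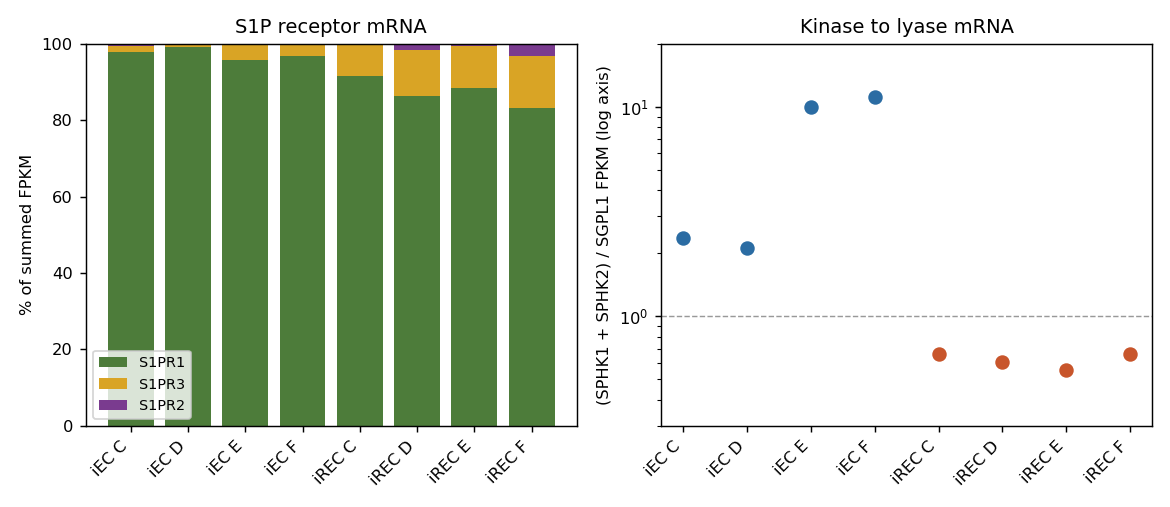
Left, the share of S1PR1, S1PR3 and S1PR2 in their summed FPKM per sample (stacked bars, percent); right, the FPKM ratio of both kinases to the lyase per sample (log axis, iEC blue, iREC orange, dashed line at 1). S1PR3 takes up to 4.12% of the summed FPKM of these receptors in iEC and at least 7.98% in iREC. The kinase to lyase ratio is at least 2.12 in iEC and at most 0.662 in iREC.

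The order of the 9 genes by mean FPKM was APLN, S1PR1, SPNS2, APLNR, SPHK1, SPHK2, SGPL1, S1PR3 and S1PR2 in iEC. It was APLN, S1PR1, SPNS2, SGPL1, S1PR3, SPHK2, APLNR, SPHK1 and S1PR2 in iREC. The first 3 places and the last were thus the same, while APLNR and SPHK1 stood lower and SGPL1 and S1PR3 higher in the iREC order. In iEC, APLN at 661 ± 151 FPKM (SD, n = 4) was clear of S1PR1 at 52.0 ± 4.35, and S1PR1 was clear of SPNS2 at 21.0 ± 1.57. Between SPNS2 and SGPL1 in that order, each gene's samples overlapped those of the next. In iREC, APLN at 60.9 ± 37.4 FPKM overlapped S1PR1 at 31.0 ± 10.7, which overlapped SPNS2 at 23.9 ± 7.17. SPNS2 was clear of SGPL1 at 5.55 ± 0.942, and SGPL1 was clear of S1PR3 at 3.72 ± 0.732; from S1PR3 down to S1PR2 each gene overlapped the next. In iREC F alone APLN, at 8.56 FPKM, was below both S1PR1 (16.8) and SPNS2 (14.6).

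**Figure D4:**
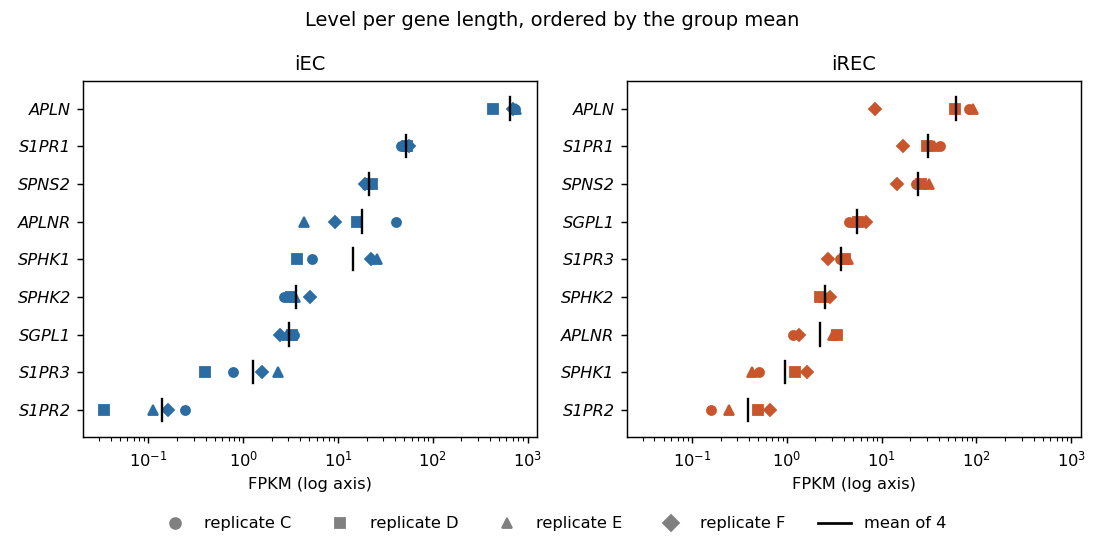
FPKM (log axis) of the 9 genes in iEC (left) and iREC (right), each ordered by the group mean (black line), with a point per sample. APLN leads both orders, at 661 FPKM in iEC and 60.9 in iREC, and the iEC points of APLNR and SPHK1 are spread over the widest ranges among the genes above 10 FPKM.

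Within iEC, 6 of the 9 genes ordered the samples by pairs. The share of all tested genes that do so was not counted, so this number describes the 9 genes and is no result about them. SPHK1, SPHK2 and S1PR3 had higher CPM in both E and F than in C or D, and APLNR, SPNS2 and SGPL1 had higher CPM in both C and D than in E or F. Over the 500 most variable genes, the distance within these pairs was 29.3 log2 CPM units for C and D and 24.0 for E and F. Across the pairs it was 35.1 for C and F, 41.0 for D and E and 42.4 for D and F, but 29.1 for C and E. The mesenchymal marker sum was 48.4, 49.9, 86.4 and 328 CPM and the epithelial sum 449.9, 392, 675 and 1177 CPM in the iEC samples C to F, thus also higher in E and F, and their part in this was not tested. No batch is given in the labels. In S1PR1, by contrast, the 4 iEC samples differed by at most 1.16-fold.

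For each called gene, the protein-coding genes with the most similar profile were taken as those with the smallest root-mean-square distance of centred log2 CPM over the 8 samples. For APLN these were SIGLEC15 (0.60 log2 units) and ARHGAP22 (0.64), and for APLNR they were VSIG1 (0.68) and KIF19 (0.68). For SPHK1 they were PLAU, the urokinase plasminogen activator (0.53), and HSD11B1 (0.55). Those of S1PR3 were BMP2, a bone morphogenetic protein (0.26), and P2RX4, an ATP-gated channel (0.31). Those of SGPL1 were MAN2A1 (0.092) and HIVEP1 (0.11). The apelin genes, with their wide spread, thus had no neighbour as close as those of SGPL1. With 2 groups, genes that differ between them in the same direction are alike by this measure.

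The other genes of the pathways were taken from 4 lists of 69 genes, of which 67 were in the table and 62 were tested; 11 were called higher and 11 lower, 35.5% in all against the 25% of all genes given above. Their median log2 fold change was -0.037. The lists were chosen with earlier results of these data known, so the shares called, here and below, describe the lists and test nothing about them. Among the partners of the 9 genes, 2 of 10 tested were higher and 1 lower. S1PR5, an S1P receptor best known from natural killer cells and oligodendrocytes, had 1, 2, 2 and 8 counts in the iEC samples C to F and 34, 53, 35 and 148 in the iREC samples C to F (edgeR adjusted p 0.00342). Its fitted log2 fold change of 4.33 rests on iEC counts of which 3 samples are at or under the floor, so its size is uncertain. It moved with single samples: without iEC F it was 5.32 and without iREC F 3.61. SGPP1, a phosphatase that returns S1P to sphingosine, rose from 5.53 ± 1.09 CPM to 12.2 ± 2.79 (SD over 4 samples; adjusted p 0.00703 by edgeR). PLPP2, a lipid phosphate phosphatase, fell from 20.6 ± 5.12 CPM to 3.005 ± 2.26 (adjusted p 0.00351 by edgeR); its log2 fold change of -2.78 was -3.42 without iREC F. PLPP3, the phosphatase that degrades S1P and lysophosphatidate outside the cell, had 17.4 ± 2.96 and 19.7 ± 11.2 CPM and was not called (edgeR adjusted p 0.748).

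In sphingolipid metabolism, which supplies the sphingosine, 5 of 23 tested genes were higher and 3 lower. That was 34.8% called, against 25% of all genes tested. ACER2, a Golgi ceramidase that frees sphingosine from ceramide, rose from 18.0 ± 4.69 CPM to 74.2 ± 32.3 (SD over 4 samples), a log2 change of 2.05 ± 0.33 (SE; adjusted p 0.00209 by edgeR). ASAH1, the lysosomal ceramidase, rose from 114 ± 34.1 CPM to 226 ± 66.9 (adjusted p 0.0269 by edgeR), but its groups overlapped and 5 of the 8 fits that left out a sample lost the call, those without iEC C, D or E or iREC D or E. Of the inhibitors of the first step, ORMDL3 rose by 0.75 and ORMDL1 by 0.36 on the log2 scale (edgeR adjusted p 0.00495 and 0.0390). ORMDL2 went the other way, at -0.66, and was not called (edgeR adjusted p 0.109). The subunits of the first step moved apart, SPTLC2 by 0.50 and SPTLC1 by -0.42 (edgeR adjusted p 0.0432 and 0.0129). The SPTLC2 call was lost in 8 of 17 alternatives, with edgeR adjusted p of up to 0.120. CERK, which phosphorylates ceramide, fell from 150 ± 9.16 CPM to 92.4 ± 6.22 (SD over 4 samples; adjusted p 0.00119 by edgeR). CERS5, a ceramide synthase, fell by 0.61 on the log2 scale (edgeR adjusted p 0.0304), a call lost without any 1 of iEC E, iEC F, iREC C, iREC D or iREC E.

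Of the genes that couple the receptors to the cell, 2 of 23 tested were higher and 6 lower. That was 34.8% called, against 25% of all genes tested. TIAM1, a RAC activator, rose from 24.99 ± 10.5 CPM to 103 ± 52.1 (SD over 4 samples), a log2 change of 2.04 ± 0.43 (SE; adjusted p 0.00779 by edgeR). GRK5, a kinase that phosphorylates active receptors, fell from 113 ± 25.3 CPM to 32.1 ± 4.17, a log2 change of -1.81 ± 0.18 (SE; adjusted p 0.000171 by edgeR). The Gi subunit GNAI2, through which S1PR1 and APLNR signal, fell from 1318 ± 327 CPM to 597 ± 76.8 (adjusted p 0.00222 by edgeR), and GNAI3 fell by 0.41 on the log2 scale (edgeR adjusted p 0.0166, and 0.0517 with no filter on low counts). GNA12, used by S1PR2, fell by 0.75 and GNAQ rose by 0.51 on the log2 scale (edgeR adjusted p 0.00556 and 0.0128). The related subunit genes GNAI1, GNA13 and GNA11 were not called, with log2 fold changes of 0.38, -0.12 and 0.019. The beta-arrestin genes ARRB1 and ARRB2 were not called, with log2 fold changes of 0.084 and -0.35.

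Of 6 transcriptional regulators listed for their known roles in endothelium, 2 were higher and 1 lower. That was 50% called, against 25% of all genes tested, and 6 genes are too few to compare shares. KLF2, a flow-responsive factor known to induce S1PR1, had 14.1, 8.15, 35.04 and 19.6 CPM in the iEC samples C to F and 1.37, 1.499, 1.04 and 1.83 in the iREC samples C to F (log2 change -3.74 ± 0.46, SE; adjusted p 0.000493 by edgeR). The groups were far apart, while S1PR1 itself differed by -0.73 on the log2 scale. KLF4, also listed, had low means of 0.390 CPM in iEC and 1.63 CPM in iREC. Its log2 fold change went the other way, at 2.07, and was not called (edgeR adjusted p 0.0811). FOXO1, a forkhead factor of quiescent endothelium, rose from 52.8 ± 10.5 CPM to 135 ± 33.0 (SD over 4 samples; adjusted p 0.00170 by edgeR). EPAS1, the endothelial hypoxia factor HIF-2α, rose from 562 ± 223 CPM to 1616 ± 153 (adjusted p 0.00340 by edgeR), while HIF1A was 431 ± 30.6 and 351 ± 51.7 CPM and was not called (edgeR adjusted p 0.143). Whether any of these factors acts on the 9 genes in these cells was not tested.

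**Figure D5:**
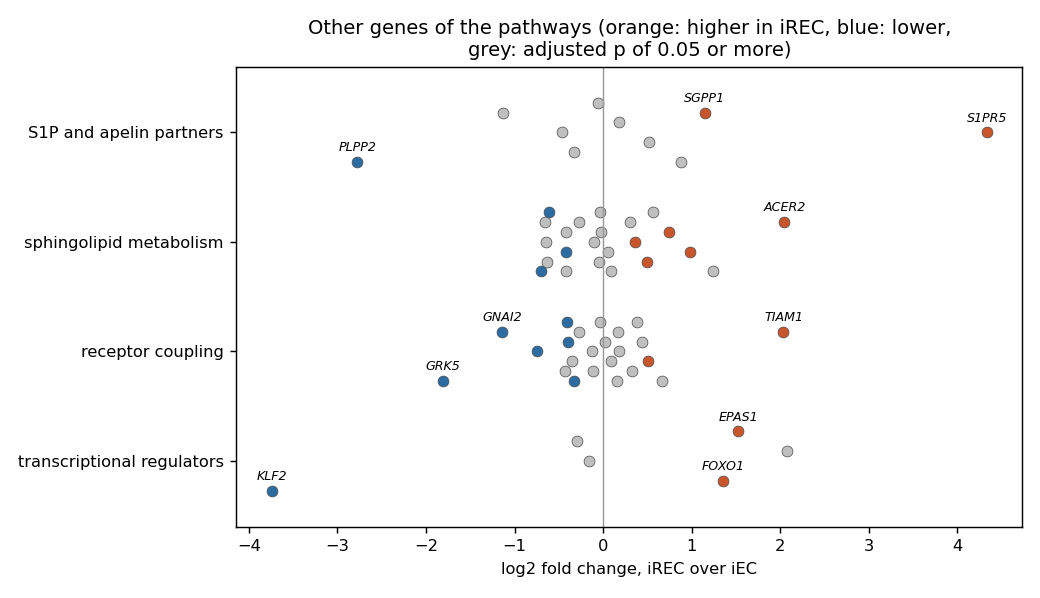
Fitted log2 fold change (iREC over iEC) of the 62 tested genes of the 4 pathway lists, a point per gene with no meaning in its height within a list; orange is called higher, blue called lower and grey not called, and called genes of at least 2-fold are named. Most genes lie near 0, and S1PR5 (4.33), ACER2 (2.05), TIAM1 (2.04), PLPP2 (-2.78) and KLF2 (-3.74) lie farthest out among the called genes.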

How the data were processed

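Poly-A RNA of 8 samples was sequenced, 4 iEC and 4 iREC, grouped by sample title. The authors deposited raw read counts per gene; the submitters' processing notes name fastp, HISAT2 2.0.5 and the build hg38, and the counting program is not given in the sources used here. The deposited FPKM equalled count over the listed gene length times 1 factor per sample. The deposited log2 fold changes and adjusted p-values compare iREC with iEC, per the file headers. The 8 normalized columns per sample were not used. The identifier and position of each of the 30386 genes were found unchanged in GENCODE release 29 (GRCh38).

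Genes were kept by filterByExpr of edgeR 4.0.16 (15330 genes), scaled by TMM and tested by its quasi-likelihood F-test with all 8 samples and no covariate besides group, and Benjamini-Hochberg adjustment ran over all tested genes. Standard errors came from the coefficient and F. Log2 CPM used a prior count of 2. Alternatives were DESeq2 1.42.0, limma-voom (limma 3.58.1), other scalings and filters, protein-coding genes only, the replicate letter as a block, each sample left out, and, added after the data were seen, the newer quasi-likelihood fit. The script was tested on simulated data. Replicates differed beyond counting noise in every pair. The floor of 3 counts covers counting error only; the printed SDs and SEs hold the spread between samples.

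The 9 genes and the lists were chosen with earlier results of these data known. Named by rule were all 9 genes, from each pathway list up to 4 called genes in each direction with the largest changes that reached a mean of 1 CPM in either group, and 2 genes of like profile per called gene. APELA, PLPP3, HIF1A, KLF4, ARRB1, ARRB2, GNAI1, GNA11, GNA13, ORMDL1 and ORMDL2 were named after their values were seen. Promoter sequences are RefSeq's (GRCh38.p14), and 7 of the 9 genes matched.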

Additional observations from a re-analysis of the deposited data

Results flagged for a closer look

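Dixon's criterion at the 95% level was applied to the highest and lowest sample of each group. Of 22 groups of values examined (the 9 genes, the S1PR1 share and the total count in each group), 1 was past it, where chance, at about 1 in 20 groups, gives about 1.1. This was S1PR1 in iEC C, at 7.93 log2 CPM against 8.15 in the nearest of the other 3 iEC samples; these 3 lay within 0.003 of each other.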

How the results depend on the processing

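The calls of APLN, APLNR, SPHK1 and SGPL1 held under all 17 alternatives, with log2 fold changes from -3.84 to -3.06, from -3.29 to -2.13, from -4.29 to -3.45 and from 0.79 to 0.97. S1PR3 was called in 12 of 17 and S1PR1 in 5 of 17; SPHK2, SPNS2 and S1PR2 were not called in any that tested them (17, 17 and 16). No direction among the 9 genes changed. Leaving out 1 sample at a time, between 1 and 2 of the 9 genes were called higher. Without length scaling, from raw counts, the S1PR1 share of S1PR1, S1PR2 and S1PR3 was 94.1% in iEC and 74.7% in iREC, since S1PR3 has the longest listed gene length of the 3. Over all genes, DESeq2 called 4954 and the edgeR fit without iREC D 2660, against 3829. Whether the letters shared by iEC and iREC pair the samples is not given in the labels. Deviations from the group means correlated across genes at 0.17, -0.079, 0.029 and 0.25 for C, D, E and F. Samples iEC C and F correlated best with their own letter, and iEC D and E did not. With 4 samples per group these values cannot decide whether the samples were paired. With the replicate letter as a block, 3334 genes were called. Of the 9 genes and the pathway genes named by rule, the calls of SPTLC2 and SPTLC1 were lost (edgeR adjusted p 0.0507 and 0.0505). S1PR2 and S1PR5 are limited by depth, with few counts in iEC.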
